A study of Homo sapiens with 10 samples.

Results

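The kinetochore is the protein assembly that joins each chromosome to spindle microtubules in mitosis, and the spindle checkpoint is the signalling circuit that holds a cell before anaphase until every kinetochore is attached. A set of 43 genes of these 2 systems was followed through nutlin-3a treatment. They were taken by their symbols from the deposited tables, which listed 13279 genes for RNA-Seq and 11337 for Ribo-Seq. All 43 had a row in the RNA-Seq table and 42 also had one in the Ribo-Seq table, which held no row for SKA1. The genes were divided into 8 groups by the role of their product. Most of the genes are known to be transcribed mainly in cells that approach mitosis, and p53 activation is known to lower many genes of this kind through p21 and repressor complexes that bind their promoters.

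The samples were BJ cells, human skin fibroblasts immortalised by expression of hTERT. The control was untreated and the other cultures received nutlin-3a, which frees p53 from its inhibitor MDM2, for 2, 4, 6 or 19 h. Poly(A) RNA was sequenced at each time (RNA-Seq), and so were the mRNA fragments that ribosomes shield from nuclease after cycloheximide treatment (Ribo-Seq). No dose of nutlin-3a was taken from the sample labels.

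Each of the 10 groups held 1 library, so no difference given here has a replicate check and none was tested. Values are FPKM, in which the reads of a gene are divided by the length of its transcript and by the total of the library. RNA levels on this scale can be compared between genes, whereas Ribo-Seq levels also followed transcript length. The steps between FPKM values gave back the reads behind them, with totals of 23845558 to 27554289 reads in RNA-Seq and of 7744900 (19 h) to 14460725 in Ribo-Seq. The counting error (SE) of a log2 change comes from these reads and covers counting alone, not the variation between cultures. CDKN1A, which encodes p21, was at 68.6, 212, 915, 1204 and 1316 FPKM of RNA in the control and at 2, 4, 6 and 19 h, and MDM2 was at 14.9, 36.3, 203, 254 and 259. The fibroblast markers COL1A1, COL1A2, COL3A1, VIM, THY1 and PDGFRB were at 55.5 FPKM of RNA or more in all 5 libraries. Of the markers of other cells, CDH1 and PTPRC stayed at or below 0.025 and 0.246 FPKM of RNA and had no row in the Ribo-Seq table, and EPCAM, PECAM1 and ALB had no row in either table.

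RNA of the kinetochore and checkpoint genes was little lower at 2 h, moderately lower at 4 h and much lower from 6 h on. Summed over the 43 genes, RNA stood at 1052 FPKM in the control and at 91.9%, 75.3%, 30.9% and 17.9% of it at 2, 4, 6 and 19 h. In these bulk samples, fewer cells of a kind (such as cells near mitosis) and less RNA per cell cannot be told apart. Log2 changes were taken against the control with values floored at 1 FPKM, and a gene was called lower or higher from a 2-fold change on. Background shares refer to the 7015 tested genes, those that reached 5 FPKM in 1 or more RNA-Seq and 1 or more Ribo-Seq libraries, and 34 of them belong to the set. The control library alone could meet this filter, so the counts of the 34 are a description. At 2, 4, 6 and 19 h, RNA of 0, 1, 26 and 29 of the 34 genes was at least 2-fold lower, beside 0.0143%, 0.684%, 5.39% and 7.1% of all tested genes. Over all 43 genes the numbers were 0, 2, 32 and 36. No gene of the set was at least 2-fold higher in RNA at any time, beside 0.927%, 1.41%, 1.75% and 2.49% of all tested genes. The median log2 change of the 34 genes was -0.15, -0.44, -2.30 and -3.34, against -0.045, -0.074, -0.0024 and -0.067 over all tested genes. At 4, 6 and 19 h each of the 34 lay below its control.

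Ribosome density, the Ribo-Seq value of a gene, was also much lower at 6 and 19 h. At 4 h density of 23 of the 34 genes lay below its control, beside 38.6% of all tested genes, whereas RNA of each of the 34 did, beside 66.4%. Summed over the 42 genes with a row, it was 95.3%, 101%, 36.2% and 16.8% of the control at 2, 4, 6 and 19 h. Genes of high density, such as CENPW and SPC24, weigh most in this sum, and at 4 h density of these 2 was at 133% and 122% of control. Density of 0, 2, 27 and 29 of the 34 genes was at least 2-fold lower, beside 0.128%, 0.527%, 8.04% and 14.9% of all tested genes. None was at least 2-fold higher, beside 2.12%, 2.58%, 5.26% and 6.22%. The median log2 change of density was -0.13, -0.20, -2.34 and -3.20, against 0.016, 0.10, -0.020 and -0.19 over all tested genes. The floor shortens the last of these, since Ribo-Seq levels at 19 h lay under 1 FPKM in 23 of the 42 genes. Without it the median at 19 h was -4.15 for density and -3.57 for RNA.

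**Figure D1:**
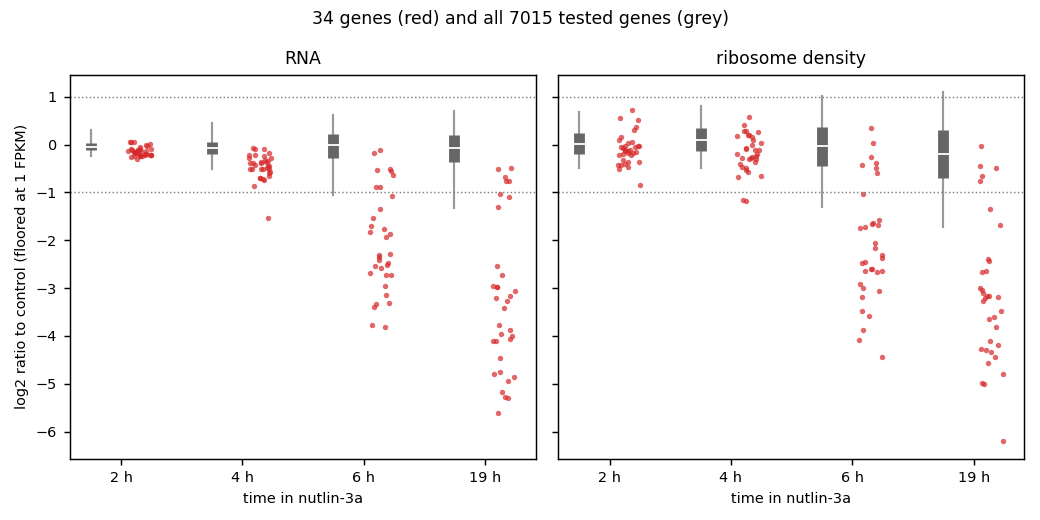
Log2 ratio to the control (y axis, values floored at 1 FPKM) at each time for the 34 tested genes of the set (red points) and for all 7015 tested genes (grey: thin line 5th to 95th percentile, thick line quartiles, white tick median), with RNA on the left and ribosome density on the right. Dotted lines mark 2-fold, and at 6 h 26 of the red points in RNA and 27 in density lie below the lower line.

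The centromere itself is marked by CENPA, the histone variant that replaces the common one in centromeric nucleosomes, and is also bound by CENPB, which recognises a DNA box in the satellite repeats. RNA of CENPA (ENSG00000115163) was at 16.03, 13.5, 11.2, 1.62 and 0.185 FPKM in the control and at 2, 4, 6 and 19 h. Its ribosome density was at 27.9, 25.8, 25.6, 3.35 and 0.534 FPKM. Both assays thus held a modest decline through 4 h, a steep one between 4 and 6 h and a further one by 19 h, when RNA was at 1.15% of control on 7 reads (exact 95% counting interval 0.462% to 2.39%). CENPB took a different course, with 76.4, 77.2, 63.1, 49.2 and 45.3 FPKM of RNA and 44.7, 43.8, 54.3, 34.5 and 32.6 FPKM of density. Its RNA was at 59.3% of control at 19 h and never reached a 2-fold difference.

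The constitutive centromere-associated network is the inner layer that stays on the centromere throughout the cell cycle and carries the outer kinetochore. RNA of 9 of its 12 genes was at least 2-fold lower at 6 h and at 19 h, namely CENPH, CENPI, CENPK, CENPL, CENPM, CENPN, CENPO, CENPQ and CENPW. CENPM was at 22.1, 23.1, 18.3, 7.63 and 1.51 FPKM of RNA and at 61.2, 63.2, 65.001, 19.7 and 7.08 FPKM of density. CENPN, which contacts the centromeric nucleosome directly, was at 24.01, 23.5, 20.3, 7.09 and 2.86 FPKM of RNA and at 27.9, 20.6, 24.2, 8.36 and 1.41 of density. Both genes were within a few percent of control in RNA at 2 h and fell between 4 and 19 h. CENPT, whose product offers a second docking site for the NDC80 complex, was at 22.5, 19.1, 17.2, 15.2 and 13.4 FPKM of RNA and 20.4, 25.1, 23.6, 20.8 and 14.7 of density, and was not called in either assay. Density of CENPT was above its control at 2, 4 and 6 h and below it at 19 h. CENPC1, the platform protein now called CENPC, was at 5.34, 4.64, 4.43, 3.72 and 3.32 FPKM of RNA and 2.65, 2.37, 2.42, 1.38 and 0.864 of density, and its density at 19 h was at 32.6% of control. CENPP was the least expressed gene of the set, at 0.986, 1.04, 0.775, 0.455 and 0.333 FPKM of RNA, so the floor left it no room for a fall. CENPW, the histone-fold partner of CENPT, took a steeper course, with 28.8, 26.4, 26.9, 13.7 and 3.71 FPKM of RNA and 129, 124, 172, 85.9 and 15.7 of density. Of the pair only CENPW was called, and its density at 4 h was at 133% of control.

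The other genes of the inner layer belong to its CENPH-CENPI-CENPK, CENPL-CENPN and CENPO-CENPP-CENPQ modules. CENPH was at 16.9, 15.6, 12.96, 6.69 and 1.82 FPKM of RNA and 15.7, 13.8, 18.1, 4.79 and 1.301 of density. CENPI was at 10.7, 9.59, 6.62, 1.61 and 0.483 of RNA and 6.36, 4.71, 2.82, 0.487 and 0.158 of density, and CENPK at 13.6, 11.8, 10.7, 2.28 and 0.576 of RNA and 12.6, 9.05, 8.69, 2.004 and 0.670 of density. CENPI was the one gene of the network whose density was at least 2-fold lower at 4 h. CENPL was at 10.5, 9.59, 6.39, 2.73 and 1.34 FPKM of RNA and 8.91, 6.94, 5.63, 1.47 and 0.767 of density. CENPO was at 17.1, 16.9, 12.1, 4.70 and 2.94 of RNA and 9.15, 7.96, 7.11, 1.52 and 0.707 of density, and CENPQ at 8.98, 8.01, 5.95, 2.52 and 1.13 of RNA and 6.25, 4.39, 5.04, 0.804 and 0.299 of density. RNA of these called genes stood between 4.22% of control (CENPK) and 17.2% (CENPO) at 19 h.

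The outer kinetochore network binds microtubules through the NDC80 complex, the KNL1 scaffold (here under its older symbol CASC5) and the MIS12 complex that links them to the inner layer. NDC80, the founding subunit of its complex, was at 30.5, 27.3, 21.6, 3.48 and 0.424 FPKM of RNA and 21.8, 19.9, 15.8, 1.28 and 0.178 of density. NUF2, its partner in the microtubule-binding head, was at 27.7, 24.05, 19.6, 2.75 and 0.273 FPKM of RNA and 19.3, 20.6, 17.98, 1.31 and 0.131 of density. These 2 were among the genes with the lowest remaining RNA, 1.39% and 0.986% of control at 19 h. Their density at 19 h rested on 3 and 2 reads, which gave 0.820% of control (counting interval 0.168% to 2.41%) for NDC80 and 0.680% (0.0820% to 2.47%) for NUF2. SPC24 and SPC25 form the other end of the complex. SPC24 was at 20.9, 19.5, 15.3, 3.61 and 1.35 FPKM of RNA and 112, 110, 136, 35.5 and 7.897 of density, and SPC25 at 23.6, 22.3, 18.9, 4.83 and 2.47 of RNA and 32.1, 25.6, 32.9, 3.52 and 0.477 of density. RNA of this pair was at 6.46% and 10.4% of control at 19 h, above NDC80 and NUF2, while density of SPC25 was at 1.48%.

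The KNL1 and MIS12 arms of this network were not uniform. CASC5 was at 14.02, 12.1, 11.6, 2.17 and 0.421 FPKM of RNA, and ZWINT, which binds the KNL1 protein and helps to recruit the RZZ complex, was at 58.98, 52.6, 41.4, 10.6 and 2.69. Density of CASC5 was low throughout, at 1.77, 2.68, 1.33, 0.207 and 0.0810 FPKM, and density of ZWINT was at 89.1, 86.8, 101, 21.5 and 5.17. Both genes were called in RNA at 6 and 19 h, but the floor kept the density of CASC5 within 2-fold. Of the 4 MIS12 complex genes, DSN1 was the one gene of the 34 called in RNA at 4 h, with RNA at 16.6, 13.4, 5.72, 5.14 and 2.52 FPKM and density at 14.3, 12.9, 6.46, 2.89 and 1.59. MIS12 was at 9.29, 8.67, 6.22, 5.23 and 4.51 FPKM of RNA and 3.53, 4.04, 1.79, 0.515 and 1.24 of density. NSL1 at 11.1, 9.37, 8.78, 9.87 and 7.89 and PMF1 at 14.4, 13.4, 13.6, 10.1 and 9.01 FPKM of RNA stayed within 2-fold at every time. Density of this pair, at 11.4, 10.1, 12.6, 9.51 and 7.24 FPKM for NSL1 and 52.1, 44.9, 62.3, 38.9 and 30.8 for PMF1, also stayed within 2-fold. In this complex DSN1 thus stood at 15.1% of control RNA at 19 h, MIS12 at 48.5%, PMF1 at 62.7% and NSL1 at 71.1%.

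**Figure D2:**
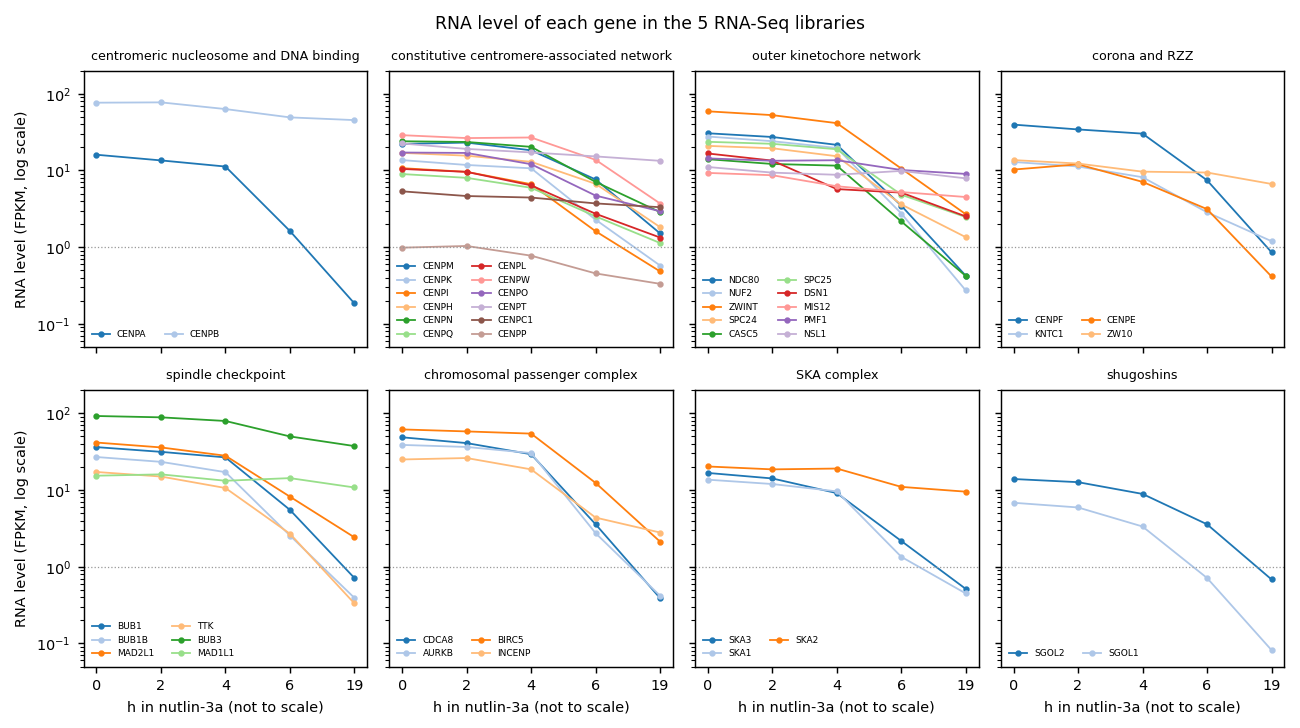
RNA level of each of the 43 genes (y axis, FPKM on a log scale) in the control (0) and at 2, 4, 6 and 19 h of nutlin-3a, 1 library a time, in 1 panel for each group of products (dotted line, 1 FPKM). Most lines bend down between 4 and 6 h, whereas CENPB, CENPC1, CENPT, NSL1, PMF1 and MAD1L1 fall least by 19 h.

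The corona is the fibrous outermost layer, and the RZZ complex (ROD, ZW10 and Zwilch) brings dynein and MAD proteins to it. CENPE, a kinesin motor that carries chromosomes towards the spindle equator, was at 10.3, 12.02, 7.10, 3.13 and 0.415 FPKM of RNA and 3.02, 3.82, 2.41, 0.842 and 0.105 of density. CENPF, a large coiled-coil protein of the corona, was at 39.6, 34.2, 30.2, 7.46 and 0.860 FPKM of RNA and 9.26, 13.5, 8.06, 1.68 and 0.351 of density. Density of both was above the control at 2 h, by 0.34 (SE 0.11) and 0.55 (SE 0.056) on the log2 scale, and far below it at 19 h. KNTC1, which encodes ROD, was at 12.9, 11.3, 8.16, 2.85 and 1.197 FPKM of RNA and 3.15, 4.52, 2.704, 0.628 and 0.316 of density. ZW10 differed from these 3, with 13.7, 12.3, 9.64, 9.40 and 6.67 FPKM of RNA and 11.2, 10.3, 9.31, 7.996 and 4.402 of density, and it was first called at 19 h in both assays. ZW10 also serves in membrane traffic outside mitosis.

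The spindle checkpoint genes encode the kinases and the inhibitory complex that restrains the anaphase-promoting complex. BUB1, a kinase that marks centromeric chromatin, was at 36.2, 31.4, 26.6, 5.505 and 0.712 FPKM of RNA and 20.3, 19.6, 14.5, 3.71 and 0.773 of density. BUB1B, which encodes the inhibitor BUBR1, was at 26.9, 23.3, 17.1, 2.55 and 0.392 FPKM of RNA and 11.2, 14.5, 9.53, 0.794 and 0.178 of density. TTK, the MPS1 kinase that starts checkpoint signalling, was at 17.2, 14.98, 10.6, 2.69 and 0.332 FPKM of RNA and 7.99, 6.19, 5.38, 0.660 and 0.214 of density. RNA of these 3 was at 1.97%, 1.46% and 1.93% of control at 19 h, and all 3 were called from 6 h on in both assays. MAD2L1, the inhibitor MAD2, was at 41.5, 35.9, 27.96, 8.18 and 2.41 FPKM of RNA and 44.5, 33.4, 27.97, 5.94 and 1.87 of density. The other 2 genes of the group kept more of their RNA. BUB3, the adaptor that brings BUB1 and BUBR1 to the kinetochore, was the most abundant RNA of the set in the control, at 92.1, 88.5, 79.3, 49.9 and 37.3 FPKM, with density at 101, 87.6, 95.7, 49.8 and 31.8 FPKM. MAD1L1, the MAD2-binding protein MAD1, was at 15.4, 15.98, 13.2, 14.3 and 10.8 FPKM of RNA and at 14.3, 23.7, 21.2, 18.3 and 13.99 of density. MAD1L1 was the one gene of the 42 whose density was above the control at 2, 4 and 6 h by more than 1.25-fold each time, at 166%, 148% and 128%, and it was at 97.8% at 19 h.

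The chromosomal passenger complex corrects faulty attachments through the kinase Aurora B. Its 4 genes were all called at 6 and 19 h in both assays, and their median RNA was 11.3% of control at 6 h and 1.93% at 19 h. AURKB (ENSG00000178999), the kinase, was at 38.7, 36.4, 30.3, 2.73 and 0.418 FPKM of RNA and 73.4, 69.6, 60.4, 3.39 and 0.201 of density. CDCA8, the subunit borealin, was at 48.6, 40.9, 29.2, 3.57 and 0.389 FPKM of RNA and 31.7, 32.6, 23.9, 2.65 and 0.314 of density. CDCA8 had the largest fall in RNA of the 34 genes, -5.60 with the floor and -6.97 (SE 0.29) without it. BIRC5, which encodes survivin, was at 61.6, 57.98, 54.3, 12.4 and 2.12 FPKM of RNA and 48.9, 44.7, 40.3, 9.49 and 2.68 of density. INCENP, the scaffold, was at 24.99, 26.1, 18.6, 4.37 and 2.79 FPKM of RNA and 15.6, 22.1, 14.9, 4.86 and 2.96 of density. INCENP kept the most of its control level among the 4, 11.2% of RNA and 19.04% of density at 19 h, while density of AURKB was at 0.273% (counting interval 0.0331% to 0.990%) on 2 reads.

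The SKA complex follows the depolymerising microtubule end, and the shugoshins protect cohesin at the centromere. SKA1 was at 13.6, 11.96, 9.59, 1.34 and 0.448 FPKM of RNA and SKA3 at 16.7, 14.1, 9.10, 2.16 and 0.513, with density of SKA3 at 9.67, 10.8, 7.82, 2.18 and 0.487. SKA2 was at 20.2, 18.6, 19.03, 10.98 and 9.51 FPKM of RNA and 6.61, 3.66, 6.58, 2.21 and 1.22 of density. SKA1 and SKA3 were called from 6 h on in RNA, and SKA2 at 19 h. SGOL1 was at 6.82, 5.92, 3.34, 0.714 and 0.0820 FPKM of RNA and 4.65, 3.25, 3.76, 0.340 and 0.110 of density, and SGOL2 at 13.9, 12.6, 8.89, 3.57 and 0.683 of RNA and 3.77, 2.88, 2.04, 0.495 and 0.184 of density. SGOL1 and DSN1 were the 2 of the 43 genes called in RNA at 4 h, and SGOL1 ended on 5 reads of RNA at 19 h.

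**Figure D3:**
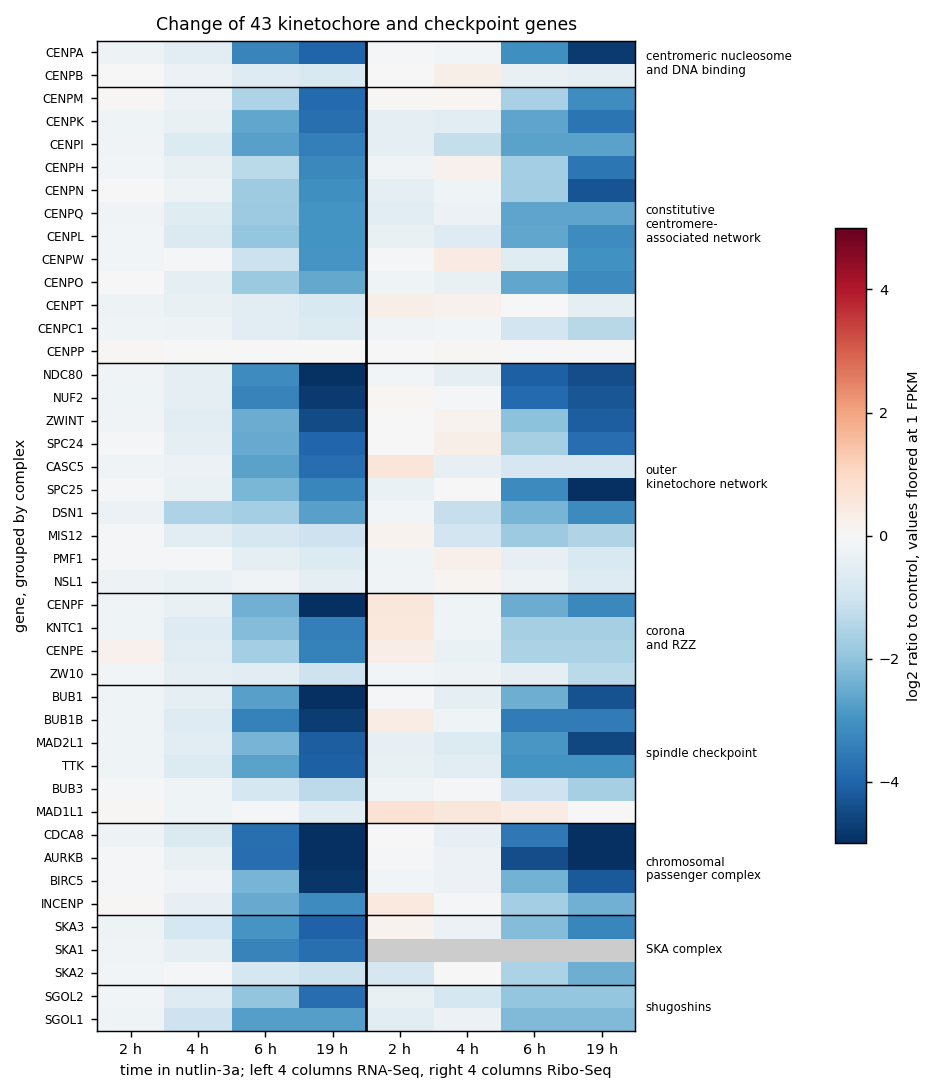
Log2 ratio to the control with values floored at 1 FPKM (colour, limited to -5 to 5) for the 43 genes in rows, grouped by complex, at 4 times of RNA-Seq and 4 of Ribo-Seq in columns (grey, no row in the table). Blue fills most rows at 6 and 19 h in both assays, and pale rows within the groups are CENPB, CENPT, CENPC1, CENPP, NSL1, PMF1 and MAD1L1.

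Taken by the time of the first 2-fold difference, 2 of the 43 genes were lower in RNA from 4 h (DSN1 and SGOL1), 30 from 6 h and 4 from 19 h (ZW10, MIS12, BUB3 and SKA2). The other 7 were CENPB, CENPC1, CENPP, CENPT, NSL1, PMF1 and MAD1L1. In density, 2 of 42 genes were lower from 4 h (CENPI and DSN1), 30 from 6 h and 3 from 19 h (CENPC1, CENPW and ZW10), and 7 at no time. Most of the set thus passed the 2-fold mark between 4 and 6 h in both assays. Of the RNA lost by 19 h in the 36 called genes, between 60.04% (CENPW) and 93.9% (AURKB) was already gone at 6 h. At 19 h RNA remaining ranged from 0.8002% of control in CDCA8 to 71.1% in NSL1. After CDCA8 came NUF2 (0.986%), AURKB (1.08%), CENPA (1.15%), SGOL1 (1.203%) and NDC80 (1.39%). These rest on 5 to 25 reads each, and neighbours in that order do not differ beyond their counting error. At the other end stood NSL1, MAD1L1 (70.2%), PMF1 (62.7%), CENPC1 (62.1%), CENPT (59.4%) and CENPB (59.3%), each on 200 reads or more. Across the 34 genes, Pearson's r between the change of RNA and that of density was 0.16, 0.70, 0.91 and 0.86 at 2, 4, 6 and 19 h, against 0.55, 0.72, 0.73 and 0.84 over all tested genes. The 2 assays share no library, but they share the cultures' treatment, the transcript models and the floor.

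Translational efficiency (TE) is the log2 ratio of ribosome density to RNA, so its change tells whether density fell more or less than RNA. Both values are scaled to the total of their own library, so a change shared by all genes would not appear in it. The median TE change of the 34 genes was 0.020, 0.33, -0.063 and 0.20 at 2, 4, 6 and 19 h, against 0.045, 0.18, 0.0021 and -0.067 over all tested genes. At 4 h 5 of the 34 genes had a TE change below 0, beside 26.7% of all tested genes. At 19 h the floor acted on many of these, and in the 18 genes at 1 FPKM or more in all 4 values of the change the median was -0.086, beside -0.070 over all such genes. Of these 18, 2 had a TE at least 2-fold lower at 19 h, beside 4.17% of all such genes, and 0 at least 2-fold higher, beside 1.65%. The 2 were SKA2, with -1.35 (SE 0.30), and CENPN, with -1.23 (SE 0.38). RNA of SKA2 was at 46.95% of control at that time and its density at 18.4%. In MIS12, which met the same condition but was not among the 34, the change was -0.47 (SE 0.34), and in MAD2L1, the next of the 18, it was -0.47 (SE 0.33). The highest changes of the 18 were those of INCENP at 0.77 (SE 0.18), CENPM at 0.76 (SE 0.32) and BIRC5 at 0.67 (SE 0.23). SPC25, outside the 18 because its density was at 0.477 FPKM at 19 h, had the lowest TE change of the 34 genes. It was -1.75 with the floor and -2.81 (SE 0.67) without it, on 5 Ribo-Seq reads.

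In the control, TE of the 42 genes ranged from -2.99 (CASC5) to 2.42 (SPC24), with a median of -0.50 against -0.27 over all tested genes. The ratio followed transcript length. The short transcripts of SPC24 (654 nt), CENPW (528 nt), PMF1 (852 nt) and CENPM (966 nt) had the 4 highest values, and the long ones of CASC5 (9573 nt) and CENPF (10307 nt) the 2 lowest. Pearson's r between log2 length and TE was -0.89 across the 42 genes and -0.73 across 6997 tested genes with a length. Both values of a ratio were divided by the same length, which cancels, so TE here is a ratio of reads scaled to library totals. The source of its trend over length was not tested. Because of this trend, TE levels should not be compared between these genes as if length were equal.

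Length also went with the change of density at 2 h. Among the 7 genes with transcripts over 4000 nt, 5 had density above the control at 2 h (median log2 change 0.34), while 9 of the 35 shorter ones did (median -0.13). Over all tested genes density was above the control in 1136 of 1671 long ones (median 0.15) and in 2489 of 5326 shorter ones (median -0.025). The slope was 0.15 on the log2 scale per doubling of length both in the set and over all tested genes. RNA of the long and of the shorter genes had a like median at 2 h, -0.14 and -0.16. The higher density of CENPE, CENPF, KNTC1 and CASC5 at 2 h therefore stands beside a trend that all tested genes share, and the part of this trend in each value was not tested.

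**Figure D4:**
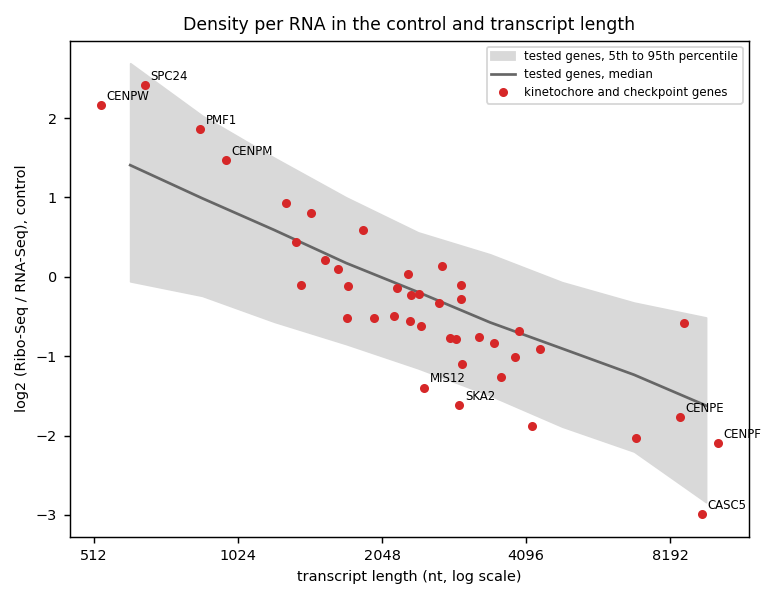
Log2 ratio of Ribo-Seq to RNA-Seq FPKM in the control (y axis) against transcript length in nt (x axis, log scale) for 42 genes of the set (red) and for tested genes in bins of length (line, median; band, 5th to 95th percentile). Short transcripts such as SPC24 and CENPW lie at the top left and long ones such as CASC5 and CENPF at the bottom right.

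Promoters were examined because 36 of the 43 genes fell together in RNA. Genes of late cell cycle phases often carry a cell cycle genes homology region (CHR), read here as TTTGAA or TTCGAA, and CCAAT boxes bound by NF-Y. RefSeq sequence of GRCh38.p14 was matched for 35 of the 43 genes, over the 250 bases before the annotated start and on both strands. CENPH, CENPL, CENPM, KNTC1, CASC5, BUB3, TTK and BIRC5 were not matched, and all of them were among the 36 genes lower in RNA. TTTGAA was present in 8 of the 35 promoters (22.9%), beside 13.6% of 27305 promoters in the table and 7.87% of 5770 tested genes. TTCGAA was in 0 of 35, beside 1.2% of all promoters. CCAAT was in 20 of 35 (57.1%), beside 33% of all promoters and 36.2% of tested genes. Among the 28 matched genes with RNA at least 2-fold lower at 19 h, 7 held TTTGAA and 18 held CCAAT, and among the other 7 these numbers were 1 and 2. In 5 of the 8 genes the TTTGAA lay within 31 bases of the start, and these are shown from 60 bases before the start to the base before it, with TTTGAA and CCAAT of either strand in capitals. The TTTGAA of CDCA8 shares its last base with a CCAAT on the opposite strand.
CENPA, chr2:26785996-26786055, plus strand: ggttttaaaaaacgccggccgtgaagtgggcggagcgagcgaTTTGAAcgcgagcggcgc
ZWINT, chr10:56361260-56361319, minus strand: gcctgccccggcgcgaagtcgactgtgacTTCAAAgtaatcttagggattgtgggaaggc
BUB1B, chr15:40161009-40161068, plus strand: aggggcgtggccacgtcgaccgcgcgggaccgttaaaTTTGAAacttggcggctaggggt
INCENP, chr11:62123951-62124010, plus strand: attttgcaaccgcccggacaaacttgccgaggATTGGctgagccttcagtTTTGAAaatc
CDCA8, chr1:37692456-37692515, plus strand: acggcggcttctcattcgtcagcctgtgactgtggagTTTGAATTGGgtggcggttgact

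RNA of these 5 genes was at 1.15% (CENPA), 4.55% (ZWINT), 1.46% (BUB1B), 11.2% (INCENP) and 0.8002% (CDCA8) of control at 19 h. The other 3 promoters with TTTGAA, those of CENPC1, SPC25 and ZW10, held it 90, 247 and 224 bases before the start, and RNA of these genes was at 62.1%, 10.4% and 48.9%. The motif thus occurred both in genes that fell to about 1% and in CENPC1, which was not called in RNA. NDC80, NUF2 and AURKB, all near 1% of control, held no TTTGAA in this window, and AURKB held a CCAAT 153 bases before its start. A match is a description of the sequence, and no binding was measured. The annotated start need not be the one used in BJ cells.

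Other genes of the kinetochore and checkpoint, outside the 43, were also read. Of 26 with a row in the RNA-Seq table, 13 were at least 2-fold lower in RNA at 6 h and at 19 h, and 12 and 14 in density. Among the 22 that passed the filter, 12 were lower in RNA at each of these times, beside 5.39% and 7.1% of all tested genes, and 12 and 13 in density, beside 8.04% and 14.9%. None of the 26 was at least 2-fold higher, and their median log2 change of RNA at 19 h was -1.45. The genes of this list and of the next given with values were chosen after their values were seen. CDC20, the activator that the checkpoint inhibits, was at 124, 114, 87.5, 15.4 and 2.33 FPKM of RNA, and PLK1, a mitotic kinase at the kinetochore, at 41.1, 40.1, 33.4, 4.38 and 1.052. HJURP, the chaperone that loads CENPA, was at 39.8, 32.5, 20.3, 3.68 and 0.780. By contrast CLASP1, a microtubule-binding protein that also works in interphase, was at 14.5, 14.6, 12.9, 18.5 and 18.02.

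Known regulators of such promoters were read in the same way. Of 15 with a row, RNA of 5 was at least 2-fold lower at 6 h and of 6 at 19 h, with a median log2 change of -0.66 at 19 h. Among the 8 that passed the filter, 3 were lower at each of these times (MYBL2, FOXM1 and TFDP1), beside 5.39% and 7.1% of all tested genes. MYBL2, an activator of late cell cycle genes, was at 46.8, 45.2, 37.1, 4.24 and 0.640 FPKM of RNA, and FOXM1, which acts after it, was at 68.9, 64.7, 61.1, 15.9 and 8.51. Genes of the repressing DREAM complex were on both sides of the 2-fold mark. RBL1, its pocket protein p107, was at 9.72, 8.58, 4.198, 1.42 and 0.959 FPKM of RNA. LIN54, its DNA-binding subunit, was at 9.38, 9.13, 4.796, 3.69 and 3.42, and TFDP1, the partner of E2F proteins, at 95.8, 96.2, 84.5, 43.2 and 44.8. These 3 were called at 6 and 19 h (RBL1 already at 4 h), and LIN52 at 19 h. E2F4 was at 44.2, 45.8, 43.6, 32.97 and 33.9 FPKM of RNA and RBL2, the pocket protein p130, at 11.7, 10.8, 9.72, 13.8 and 15.1. RNA of E2F4, RBL2, LIN37, RBBP4 and TFDP2 stayed within 2-fold at every time. E2F5 was between 0.727 and 1.15 FPKM of RNA, below the floor or just above it. NFYA, a subunit of the CCAAT-binding factor NF-Y, was at 14.96, 14.7, 12.4, 13.9 and 12.3 FPKM of RNA, and RNA of NFYB and NFYC also stayed within 2-fold. In density, 7 and 8 of the 15 were at least 2-fold lower at 6 and 19 h, among them NFYB at both times and RBBP4 at 19 h. E2F5, which did not pass the filter, was at least 2-fold higher at 6 h. Its density was at 0.931, 0.437, 0.279, 2.40 and 0.595 FPKM, near the floor. Among the 8 that passed the filter, 3 and 4 were lower in density, beside 8.04% and 14.9% of all tested genes.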

How the data were processed

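RNA-Seq and Ribo-Seq were measured in BJ cells in an untreated control and at 2, 4, 6 and 19 h of nutlin-3a, with 1 library per group. Labels gave the groups. According to the methods and the submitters' processing notes, the authors aligned reads with Bowtie to Ensembl release 65 protein-coding transcripts, a single isoform per gene, and kept unique hits, so reads shared by paralogs were lost. The notes name hg19. The methods state that conditions were compared with a control from their own sequencing run. The labels name no run, so this was not checked here, and the runs of the 2 and 4 h libraries are not given in the sources used here. The FPKM values that the authors deposited have 3 decimals and 5 columns a table, and 0 per-sample columns were left out. The table named for both assays was read as RNA-Seq, because transcripts without a poly(A) tail were low in it. The methods describe translation levels from coding-sequence reads. The Ribo-Seq columns are named as totals, and a single length, a multiple of 3 in only 33.9% of transcripts, served both tables, so these values may hold other reads and are divided by whole-transcript length. The study's supplement lists shares of coding and untranslated reads that differ between Ribo-Seq libraries, including those at 6 and 19 h. Fewer reads lay in the coding frame at these times than in its libraries from other treatments. The untreated control listed beside them there had a share lower still, so this was not particular to the treated libraries. The part of this in the density changes was not tested.

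Reads, transcript lengths and totals were worked out from the steps between FPKM values for 99.8% of 11258 transcripts in both tables. In simulated tables of 11231 genes, 96.2% of lengths were exact, 99.9% were within 0.5%, and 99.9% of read numbers were exact. Changes are log2 ratios to the control of the same assay, with values floored at 1 FPKM. Genes that reached 5 FPKM in 1 or more libraries of both assays were held against a 2-fold threshold, with no statistical test. The counting SE is the square root of the summed reciprocals of the reads, divided by the natural log of 2. Intervals for 10 reads or fewer are exact (Clopper-Pearson, 95%). PCR copies could not be told apart, so errors cover counting only. Named members were a fixed selection from each group of products, the 5 largest and 5 smallest RNA changes at 19 h, and the 3 largest TE changes in each direction among genes at 1 FPKM or more. The members and lists were chosen with earlier results of these data known. The alternatives were other floors, filters, thresholds, baselines and centring. Python 3.11.15, numpy 2.4.6, pandas 2.3.3, scipy 1.17.1 and matplotlib 3.10.9 were used.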

Additional observations from a re-analysis of the deposited data

Results flagged for a closer look

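In 8 genes, ribosome density was at least 1.25-fold above the control at an early time and at least as far below it at 19 h, each by more than 1.96 counting SE. This rule was applied to the genes of the set alone, so the share of all tested genes that meet it is not known. Of all tested genes, density of 48.1% lay below the control at 2 h and of 60.1% at 19 h. The difference between times was not tested. At 2 h the log2 change of density was 0.34 in CENPE, 0.55 in CENPF, 0.52 in KNTC1, 0.60 in CASC5, 0.38 in BUB1B and 0.51 in INCENP, and at 4 h it was 0.66 in CENPP and 0.42 in CENPW. At 19 h the same genes stood at -4.85, -4.72, -3.32, -4.45, -5.98, -2.39, -1.90 and -3.04 without the floor. Of the 6 genes higher at 2 h, 4 have transcripts over 4000 nt, a class whose density was higher at 2 h over all tested genes as well. CENPP rests on 68 Ribo-Seq reads in the control, 132 at 4 h and 12 at 19 h.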

How the results depend on the processing

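No paired analysis was possible because each group held 1 library and the labels carry no replicate numbers. Of the alternative values for the counts of genes at least 2-fold lower and the TE medians, 89 stayed and 17 moved. A count stayed if it lay within 1.5 times the main count. A median stayed if it lay within a single-gene band, 1.96 times the median counting SE of the genes. This band is not the error of a median over many genes. For TE at 19 h that SE was 0.35, so staying within the band says little there. Of the alternative values for the medians of RNA and density, 36 stayed and 10 moved, and none past 2-fold changed sign. The numbers at 4 h were small and moved most. RNA at 4 h gave 2 genes without the filter, 0 at a mean of at least 20 FPKM, 8 at 1.5-fold and 0 at 4-fold, against 1. Density at 4 h gave 1 with a floor of 5 FPKM, 1 with a pseudocount of 1 FPKM, 0 at a mean of at least 20 FPKM, 0 against the 2 h library, 4 at 1.5-fold and 0 at 4-fold, against 2. Density at 2 h gave 1 at 1.5-fold, against 0. At a mean of at least 20 FPKM only 6 genes of the set were left, of which 4 (6 h) and 5 (19 h) were lower in RNA and 5 (6 h) and 5 (19 h) in density. The median TE change at 19 h took either sign with the processing, from -0.086 to 0.29 against 0.20, all within the single-gene band. That change moved to 0.10 at 4 h under that filter and to 0.42 at 6 h with a floor of 5 FPKM. At 6 and 19 h all other alternatives kept the counts within 1.5 times, with 18 to 32 genes at 6 h and 26 to 36 at 19 h in RNA and 19 to 32 and 21 to 35 in density. Values without a floor and density with its length trend removed were added after seeing the data, and they moved no count and no TE median. Depth limited density at 19 h, where the median gene of the set had 19 reads.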
